A study of Rattus norvegicus with 8 samples.

Results

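The genes described here are the translation factors of the rat hypothalamus together with Tpt1, the translationally controlled tumor protein. A gene belonged to the set when its polyadenylation sites were annotated as protein coding and its symbol began with Eif or Eef followed by a digit, or was Tpt1. This rule used no read count, but it was chosen with earlier results of these data known. It took 194 of the 73922 sites in the table and 52 of its 12255 genes. Of these genes 43 were Eif genes, 8 were Eef genes and the last was Tpt1. The data come from adult male Long-Evans rats in 2 groups of 4 animals, both on their diet for 36 days. The control group ate standard rodent chow, and the obesity group (diet-induced obesity) had free access to a high fat diet. Hypothalamic RNA of each rat gave 1 WTTS-seq library (whole transcriptome termini site sequencing), which reads the 3′ end of polyadenylated RNA, so that reads are counted per polyadenylation site and not along the transcript. The comparison asks which of these genes, and which of their sites, had more or fewer reads after the high fat diet. No allele or transgene was involved, and what the libraries of the same number in both groups have in common beyond that number is not stated in the labels.

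Protein synthesis begins when eukaryotic initiation factors (eIF, genes Eif) bring the small ribosomal subunit and the initiator tRNA to a capped mRNA, and it proceeds while elongation factors (eEF, genes Eef) deliver aminoacyl-tRNAs and move the ribosome along. Initiation is restrained by kinases that phosphorylate eIF2 and by 4E-binding proteins that hold eIF4E, the cap-binding protein, and it is a main output of mTOR signalling, which in the hypothalamus takes part in the sensing of nutrients. Tpt1 and many elongation factor mRNAs start with a terminal oligopyrimidine (TOP) tract, through which their translation, more than their amount, follows mTOR activity.

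The libraries held 1417531 to 1957726 reads, of which 4402 to 8230 fell on the 194 sites. Hypothalamic identity was checked with 12 marker genes, 11 of which were measured, among them Avp (vasopressin) with 809 to 1578 reads and Pmch (melanin-concentrating hormone) with 165 to 314 reads in each library. Of these 11 markers 3 were lower (Avp, Oxt and Sst, with log2 fold changes of -0.44, -0.74 and -1.36) and 2 higher (Crh and Sim1, with 1.72 and 2.03) at an unadjusted p under 0.05 in edgeR. With the library number as a block 4 were lower and 2 higher. Of all genes, 2.58% were lower and 2.54% higher at that p without the block, and 6.16% and 4.76% with it. Reads were few for Sst (6 to 34 in a library), Crh (1 to 26) and Sim1 (0 to 31). Control library 1 and obesity library 1 had no read at 14788 and 10659 sites, against 4062 to 6622 sites in the other libraries. Obesity library 2 had 87 reads of Gh1 (growth hormone) and obesity library 4 had 144 reads of Ttr (transthyretin of the choroid plexus), where the other libraries had at most 2. Of the other anterior pituitary markers, Lhb had 58 reads in obesity library 2 and at most 9 elsewhere, while Cga had 71, 34, 13 and 19 reads in the control and 35, 11, 71 and 0 in the obesity libraries. The 7 oligodendrocyte markers summed to 17175 to 22643 CPM (counts scaled by the total of each library) in the control and 13320 to 20978 CPM in the obesity libraries, and all 7 had a fitted log2 fold change below 0, 1 of them at an unadjusted p under 0.05. Of 6 astrocyte and 3 measured microglia markers 1 each was lower at that p, and of 4 measured neuron markers 0. In bulk tissue, fewer cells of a type and less RNA per cell cannot be told apart, and the part of these differences in the results below was not tested beyond the values given.

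Tpt1 had the smallest p of all members for the difference between the groups. Among the counted sites, which held at least 30 reads in all, it had a single one (Rnor_6.0 chromosome 15, plus strand, 57894476 to 57894514, identifier gene31365). Where reads matching its processed copies were placed is not given. The site held 172, 92, 89 and 100 reads in the control libraries numbered 1 to 4 and, in the same order, 52, 55, 45 and 33 reads in the obesity libraries. As CPM of gene reads, with totals scaled by TMM factors, these were 122, 61.6, 72.3 and 76.0 CPM in the control and 39.1, 44.6, 26.4 and 22.5 CPM in the obesity libraries. Every obesity library lay below every control library, control library 1 was the highest and obesity library 4 the lowest. The means were 82.9 ± 26.6 CPM and 33.1 ± 10.4 CPM (SD, n = 4 each), a log2 fold change of -1.33 (SE 0.31), or 2.51 times more in the control group. In edgeR's quasi-likelihood test without a term for the library number the unadjusted p was 0.000533 and the adjusted p over all genes 0.921. Because the groups did not overlap, the obesity library had the smaller value in 4 of 4 pairs under any pairing. The terms for the library number had an edgeR adjusted p of 0.483 for Tpt1. When the library number entered as a block, the log2 fold change of -1.32 (SE 0.26) passed the threshold of 0.1 at an edgeR adjusted p of 0.0606. This call was lost when the libraries numbered 3 (log2 fold change -1.28, adjusted p 0.219 in edgeR) or 4 (-1.17, adjusted p 0.496 in edgeR) were left out of both groups. Fitted as a site among all sites, it gave -1.37 (SE 0.37) with an edgeR adjusted p of 1.0 without and 0.197 with the block. Without obesity library 2 or obesity library 4, which held the high Gh1 and Ttr reads, the log2 fold change was -1.50 or -1.17.

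**Figure D1:**
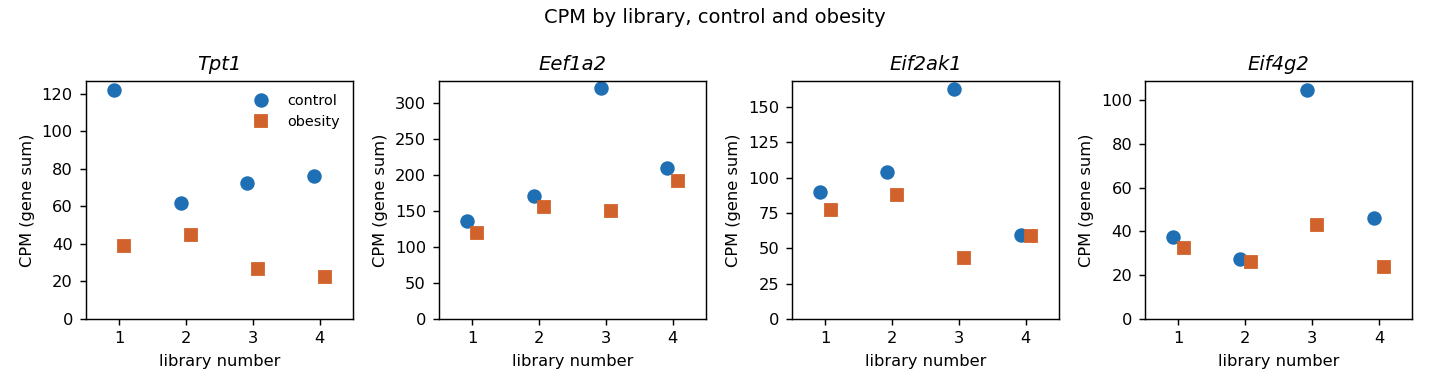
CPM (gene sums, linear axis from 0) of Tpt1, Eef1a2, Eif2ak1 and Eif4g2 in each library, by library number, with circles for control and squares for obesity. The 4 obesity values of Tpt1, at most 44.6 CPM, all lie under the lowest control value of 61.6 CPM, while in the other panels the groups overlap.

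The bases around the annotated start of Tpt1 and of a pair of other genes of the TOP list are shown because a TOP tract is defined at the first bases of an mRNA. The 30 bases around the annotated start (15 before it and 15 after it, on the gene's strand, 5′ to 3′) were taken from RefSeq on the build GRCr8, which is not the build of the site positions. Capitals mark runs of at least 5 C or T bases that begin with C. Tpt1 is at chr15:57566129-57566158 (plus strand), Eef1b2 at chr9:72074076-72074105 (plus) and Eif3f at chr1:172369047-172369076 (plus).
Tpt1: CCCCCCTCCCCCCgagcgccgctccggctg
Eef1b2: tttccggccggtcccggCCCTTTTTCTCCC
Eif3f: tcacgCCCTTCCgttctagCCTCTCTCTTT
Each sequence shown holds a run, and other measured genes of the list, such as Eef1g and Eef2, are not shown. These sequences therefore do not stand for the list. The run of Tpt1 lay just before the annotated start, that of Eef1b2 just after it, and Eif3f had a run on either side. Such a run was present in 42.31% of the 52 promoters listed for 49 of the 52 member genes and in 34.8% of all 33469 promoters, so it is common in windows of this length. A run that began exactly at the annotated start, where a TOP tract lies, was present in 1 of the 52 member promoters, that of Eif2a (1.92%), and in 2.63% of all promoters. A match here is a description of letters and not of a working tract.

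Among the 52 member genes, 1 (Tpt1, lower) passed an unadjusted p under 0.05 in edgeR without the block, or 1.92%, against 5.12% of all genes tested (2.58% lower and 2.54% higher). None passed an edgeR adjusted p of 0.1, where the share of all genes was 0%, and DESeq2 likewise gave 0 at that threshold and 1 at an unadjusted p under 0.05. With the block, 7 members were lower and 0 higher at an unadjusted p under 0.05, or 13.5%, against 10.9% of all genes (6.16% lower and 4.76% higher), and 1 passed the adjusted threshold, lower, against 0.277% of all genes (0.22% lower). The 7 were Tpt1, Eif2ak1, Eif4g2, Eef1a2, Eif5a2, Eif5 and Eif3c, of which Eif4g2, Eif5a2 and Eif5 are outside the rule for named genes and are given because the count is small. Without the libraries numbered 3 of both groups only Tpt1 was left of the 7. The fitted log2 fold change was below 0 in 34 of 52 genes with a median of -0.13, while the median over all genes was 0.00 (35 of 52, -0.20 and -0.02 with the block). The control and obesity libraries did not overlap in 1 member gene, lower in obesity, and in 0 higher, where 1.77% and 1.68% of all genes were separated in these directions. In 4 of 4 pairs of same-numbered libraries the obesity value was lower in 7 member genes and higher in 2. The share of all genes with such pairs was not computed, so these counts are a description only. The member sites together took 0.382% ± 0.056 of all reads in the control and 0.359% ± 0.091 in the obesity libraries (SD, n = 4), a difference smaller than either SD. The median SE of a member's log2 fold change was 0.44, and 9 of the 52 genes had a mean of fewer than 10 reads per library.

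**Figure D2:**
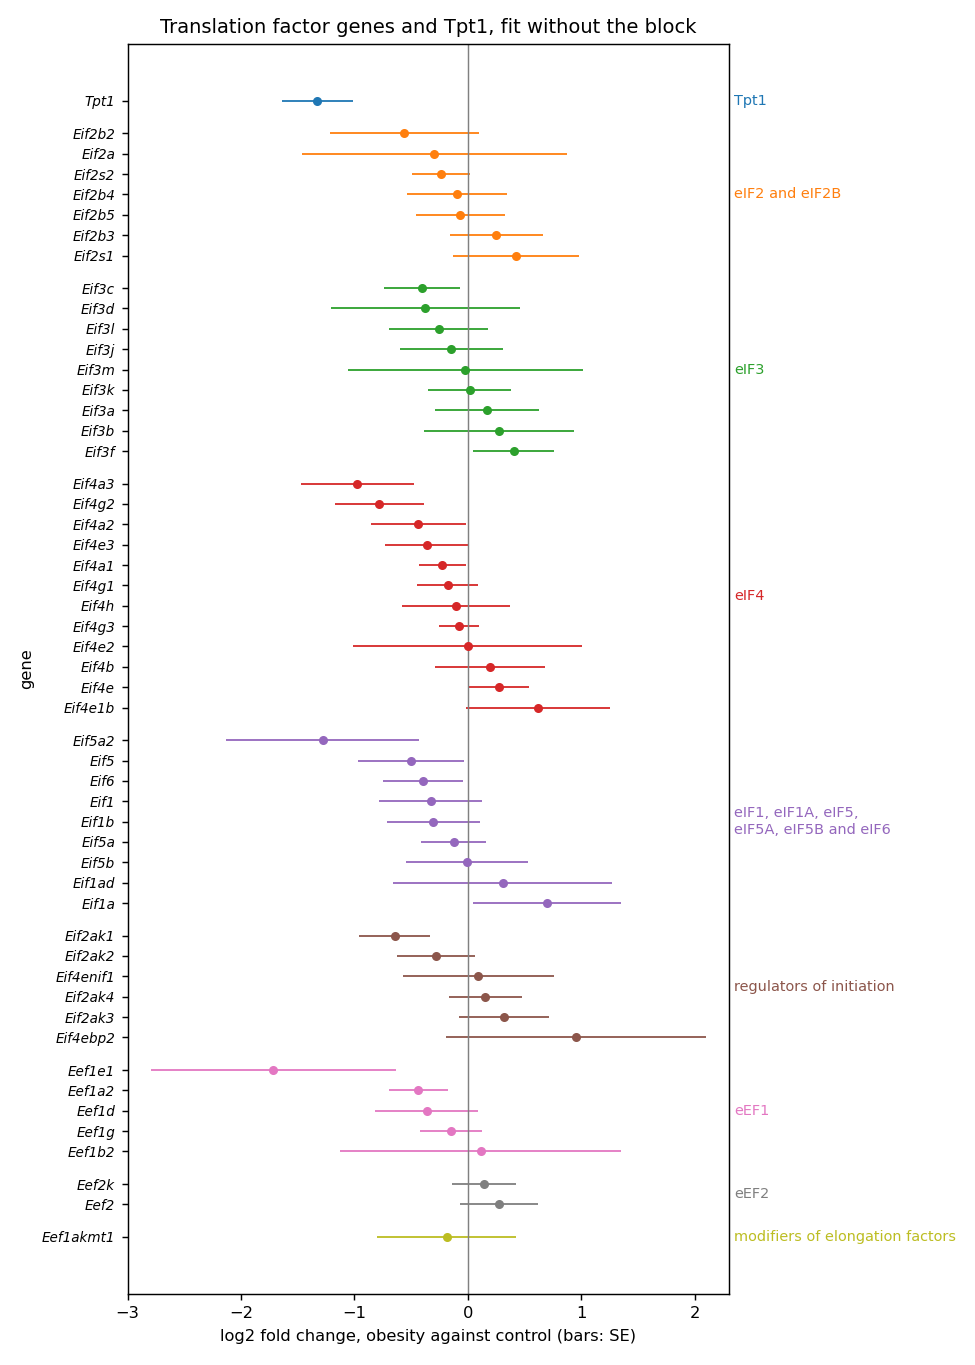
Fitted log2 fold change of each of the 52 genes (obesity against control, fit without the block) with its SE as a bar, grouped by role. Tpt1 at -1.33 is the only gene past an unadjusted p of 0.05, and the bars of most other genes cross 0.

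Among the elongation factor genes, 4 of 5 measured in the eEF1 list were below 0 and 2 of 2 in the eEF2 list above 0. None passed the adjusted threshold. The eEF1 complex loads aminoacyl-tRNA on the ribosome, and 5 of 6 listed genes were measured, since Eef1a1 was not analysed here. The list went by symbol and includes Eef1e1 (0 to 8 reads, log2 fold change -1.71, SE 1.08), which is no subunit of that complex. The median log2 fold change of the list was -0.36, with 0 of 5 past an unadjusted p under 0.05 without the block and 1 with it. That gene was Eef1a2, the eEF1A form of neurons and muscle, with 136, 171, 320.2 and 209 CPM in the control and 119, 156, 149 and 192 CPM in the obesity libraries. The groups overlapped, with control library 3 far above the rest, and the log2 fold change was -0.44 (SE 0.26, unadjusted p 0.109 in edgeR), or -0.39 with the block (adjusted p 0.426 in edgeR, lower in 4 of 4 pairs). Eef1d and Eef1g, subunits of the exchange factor eEF1B, had log2 fold changes of -0.36 (SE 0.46) and -0.15 (SE 0.27). Eef1b2, its catalytic subunit, had at most 11.3 CPM and a log2 fold change of 0.12 (SE 1.24) that turned to -0.43 with the block. Eef2, the translocase, was at 48.7 ± 6.3 CPM and 59.2 ± 30.4 CPM (log2 fold change 0.27, SE 0.34), and Eef2k, the kinase that inactivates it, had a log2 fold change of 0.14 (SE 0.29).

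On the eIF2 side of initiation no gene passed the adjusted test. eIF2 carries the initiator tRNA, and eIF2B recharges it. The list went by symbol and includes Eif2a (0 to 12 reads), which is no subunit of eIF2 or eIF2B. Of the 7 genes measured in this list 0 passed an unadjusted p under 0.05 in either fit by edgeR, with a median log2 fold change of -0.10. Eif2s2, the beta subunit and the most read of them, was at 173 ± 52.4 CPM in the control and 147 ± 37.9 CPM in the obesity group. Of the kinases that phosphorylate eIF2, Eif2ak1 (the heme-regulated kinase) had 90.0, 104, 163 and 59.3 CPM in the control and 77.4, 87.7, 42.8 and 58.5 CPM in the obesity libraries. Only the libraries numbered 3 were far apart, although the obesity value was the smaller one in 4 of 4 pairs. Its log2 fold change was -0.65 (SE 0.31, unadjusted p 0.0532 in edgeR) without and -0.60 (unadjusted p 0.0298, adjusted p 0.389 in edgeR) with the block. Leaving out control library 3 gave -0.34, and leaving out the pair numbered 3 gave -0.17 with the block. Eif2ak2, Eif2ak3 and Eif2ak4, the kinases that respond to double-stranded RNA, to endoplasmic reticulum stress and to amino acid shortage, had log2 fold changes of -0.28 (SE 0.35), 0.32 (SE 0.40) and 0.16 (SE 0.32).

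eIF3, the scaffold that holds the small subunit and the mRNA together, supplied the most read member. Of its 13 listed genes 9 were measured, with a median log2 fold change of -0.02, and Eif3e, Eif3g, Eif3h and Eif3i were not analysed here. Eif3a, its largest subunit, held 30.6% of all member reads, with 715, 992, 1125 and 2164 CPM in the control and 673, 1081, 1104 and 2758 CPM in the obesity libraries, each in the order of their numbers. Libraries of the same number were close to each other and numbers 1 and 4 far apart, and the log2 fold change was 0.17 (SE 0.46), or 0.09 (SE 0.13) with the block. Eif3c was at 117 ± 34.6 CPM in the control and 88.8 ± 48.6 CPM in the obesity group (log2 fold change -0.40, SE 0.34, or -0.48 with an unadjusted p of 0.0495 in edgeR with the block, lower in 2 of 4 pairs). Eif3f, a subunit whose mRNA is counted among TOP mRNAs, was at 23.4 ± 7.2 CPM and 31.1 ± 7.3 CPM (log2 fold change 0.41, SE 0.36).

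The eIF4 factors bind the cap and unwind the 5′ leader. The list went by symbol and includes Eif4a3, which does not have that role. None of the 12 listed genes passed an unadjusted p under 0.05 in edgeR without the block (median log2 fold change -0.14). Eif4g3, a scaffold of the cap-binding complex, was read at a similar level in all libraries, with 568, 507, 556 and 498 CPM in the control and 441, 556, 515 and 504 CPM in the obesity libraries, and a log2 fold change of -0.08 (SE 0.18). Eif4g1, the main scaffold, had 291, 211, 532 and 366 CPM in the control and 267, 261, 439 and 269 CPM in the obesity libraries, highest in the libraries numbered 3 of both groups (log2 fold change -0.18, SE 0.27). Eif4g2, an eIF4G relative that works without the cap-binding protein, had 37.5, 27.4, 105 and 46.4 CPM in the control and 32.3, 26.0, 42.8 and 23.8 CPM in the obesity libraries (log2 fold change -0.78, SE 0.39, unadjusted p 0.0631 in edgeR). The groups overlapped and the difference was again widest in the libraries numbered 3. With the block it was -0.67 (adjusted p 0.391 in edgeR). Eif4e, the cap-binding protein, was at 78.9 ± 21.5 CPM and 95.6 ± 24.3 CPM, higher in the obesity library in 4 of 4 pairs by a log2 fold change of 0.27 (SE 0.27, unadjusted p 0.323 in edgeR). Eif4h and Eif4b, which assist the helicase, had log2 fold changes of -0.11 (SE 0.48) and 0.19 (SE 0.49).

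Ratios within a library need no scaling. The log2 ratio of the helicases Eif4a1 and Eif4a2 was 3.12 ± 0.66 in the control and 3.30 ± 0.58 in the obesity group (SD, n = 4), a difference of 0.18 with p = 0.743 in a 2-sided exact permutation test. The log2 ratio of Eif4ebp2, an inhibitor that holds eIF4E, to Eif4e was -5.30 ± 2.04 and -4.99 ± 2.63 (difference 0.31, exact permutation p = 0.943). With 70 arrangements the smallest possible p was 0.0286, and the adjusted p over both ratios was 0.943 for each. Eif4ebp2 had at most 14.3 CPM and no read in 2 libraries, so its ratio in those libraries (-8.21 in control library 1 and -8.25 in obesity library 2) was set by the 0.5 added to each count before the ratio, and the means and SDs depend on that value.

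The list of eIF1, eIF1A, eIF5, eIF5A, eIF5B and eIF6 genes went by symbol and not by a shared role. Its 9 measured genes had a median log2 fold change of -0.31, again with 0 past an unadjusted p under 0.05 in edgeR without the block. With the block 2 of them (Eif5 and Eif5a2) were lower at that p, where 6.16% of all genes were lower. Eif5b, the GTPase of subunit joining, was at 71, 274, 140 and 76.0 CPM in the control and 89, 292, 95.5 and 82.3 CPM in the obesity libraries, so that libraries numbered 2 stood above all others in both groups and the log2 fold change was -0.01 (SE 0.54). Eif5a, the hypusine-carrying factor that relieves stalled ribosomes, had a log2 fold change of -0.12 (SE 0.29). Eif5, which triggers GTP hydrolysis on eIF2, had 106, 123, 44.7 and 88.2 CPM in the control and 57.8, 99.0, 15.2 and 85.1 CPM in the obesity libraries. It was lower in 4 of 4 pairs although the groups overlapped (log2 fold change -0.50, SE 0.47, or -0.63 with an edgeR unadjusted p of 0.0142 and adjusted p of 0.316 with the block).

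At the level of single sites, 3 of 194 member sites were lower and 0 higher at an unadjusted p under 0.05 in edgeR without the block, against 3.14% of all sites (1.41% lower and 1.72% higher), and 0 passed the adjusted threshold (0.00135% of all sites). DESeq2 called 3 at the unadjusted threshold. With the block there were 10 lower and 2 higher, against 6.09% of all sites (3.31% lower and 2.79% higher), and 0 at the adjusted threshold (0.00541% of all sites). The 3 sites were that of Tpt1, site 4 of 4 of Eif2ak1 (chromosome 12, 12749023 to 12749038, minus strand) and site 12 of 26 of Eif4g3 (chromosome 5, 156491164 to 156491186, plus strand). Sites are numbered in the direction of transcription. Site 4 of Eif2ak1 held 92, 124, 192 and 68 reads in the control and 76, 76, 46 and 58 in the obesity libraries (log2 fold change -1.03, SE 0.42, unadjusted p 0.0289 in edgeR, or -0.91 with an unadjusted p of 0.0106 in edgeR with the block), and its share of the gene's reads was 83.8% ± 10.1 and 68.7% ± 4.6. Without control library 3 its log2 fold change was -0.55, and without the pair numbered 3 it was -0.39 with the block, while leaving out obesity library 3 or 4 gave -0.85 or -0.96, all at an unadjusted p over 0.05 in edgeR. That of Eif4g3, outside the rule for named sites, held at most 19 reads in a library, and its unadjusted p in edgeR was 0.0407 without and 0.0594 with the block. The groups did not overlap at 2 member sites, both lower (1.69% of all sites, and 1.43% in the other direction), namely Tpt1 and a site of Eif2s2 with at most 8 reads in a library. In 4 of 4 pairs of same-numbered libraries 17 member sites were lower and 9 higher, and the share of all sites was not computed.

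With the block, the smallest p of a member site after Tpt1 belonged to site 2 of 4 of Eif4a1 (chromosome 10, 56274087 to 56274107, minus strand). It held 245, 122, 25 and 79 reads in the control and 58, 84, 12 and 38 in the obesity libraries. Each obesity library was below the control library of its number, although the groups overlapped, and the log2 fold change was -1.28 (unadjusted p 0.00045, adjusted p 0.270 in edgeR), against -1.24 (SE 0.63, unadjusted p 0.0675) without the block. Site 4 of Eif4a1, the other main site, had 140, 150, 177 and 148 reads in the control and 156, 154, 256 and 202 in the obesity libraries, and the gene sum had a log2 fold change of -0.22 (SE 0.21). In Eef1a2, site 6 of 7 (chromosome 3, 176657101 to 176657126, minus strand) held 161, 194, 348 and 223 reads in the control and 73, 159, 197 and 185 in the obesity libraries, lower in 4 of 4 pairs (log2 fold change -0.77, SE 0.40, with an unadjusted edgeR p of 0.0736 without and 0.00625 with the block). The upstream site 2, outside the rule for named sites, had at most 6 reads in the control and 2 to 20 in the obesity libraries (log2 fold change 2.11, SE 1.08, with an unadjusted edgeR p of 0.0719 without and 0.0234 with the block). A shift between sites of a gene was tested with diffSpliceDGE in the 33 members that had more than 1 site on their main strand, and 0 reached an unadjusted p under 0.05 without the block (1.39% of such genes) or with it (2.79%), and 0 passed the adjusted threshold (0% and 0.0125%). The smallest usage p without the block was 0.126, in Eif2ak1, followed by 0.131 in Eif4h and 0.306 in Eef1a2. With the block the smallest diffSpliceDGE p was 0.0513, in Eif4a1, followed by 0.0673 in Eif2ak1, 0.0794 in Eif4h and 0.0806 in Eef1a2.

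**Figure D3:**
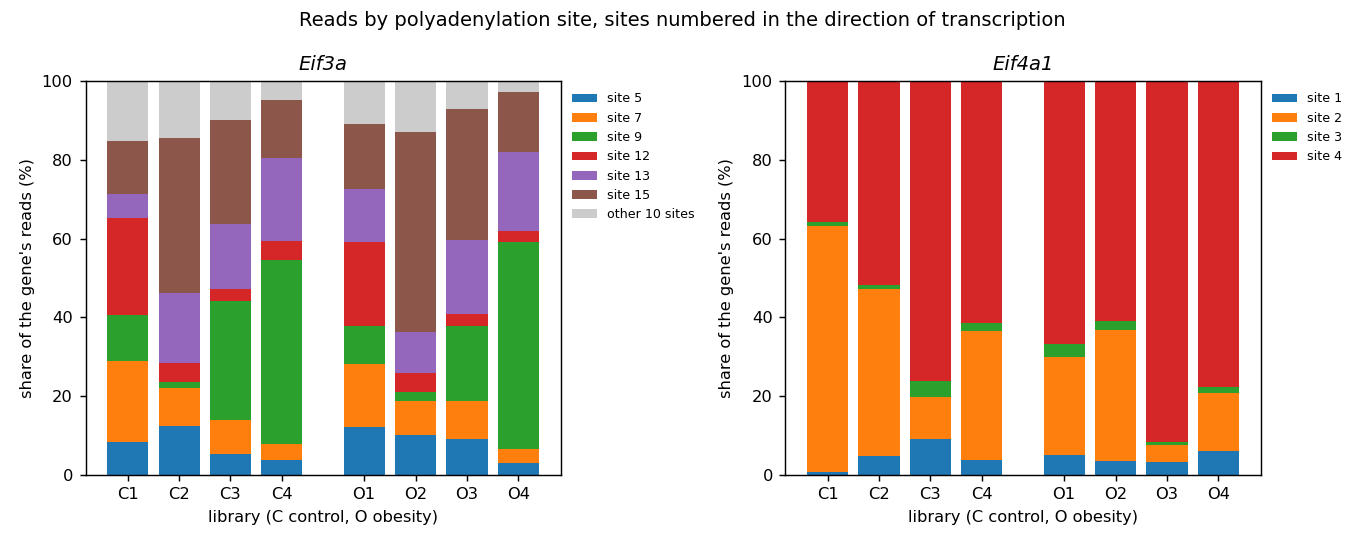
Share of the reads of Eif3a (left) and Eif4a1 (right) at each polyadenylation site in each library (C control, O obesity, percent of the gene's reads, sites numbered in the direction of transcription). For Eif3a the bars of libraries with the same number resemble each other in both groups, and for Eif4a1 the segment of site 2 is smaller in each obesity library than in the control library of its number.

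Many of these genes differed between library numbers. The terms for the library number, tested after the data were seen, passed an edgeR adjusted p under 0.1 in 12 of 52 member genes (10.7% of all genes) and in 31 of 194 member sites (8.66% of all sites). The number (3 terms) accounted for a median of 61.4% of the squared deviations of log2 CPM (with 1 added to each CPM) in the member genes and 52.5% in all genes, and the diet (1 term) for 8.02% and 9.08%. More terms take a larger share by chance alone, so the share of the number cannot be set directly against that of the diet. The clearest case was site 9 of 16 of Eif3a (chromosome 1, 282145845 to 282145882, minus strand), with 120, 23, 418 and 1328 reads in the control and 86, 33, 362 and 2130 in the obesity libraries. Its highest values were in both libraries numbered 4 and its lowest in both numbered 2. Site 3 of 4 of Eif4enif1, which carries eIF4E into the nucleus (chromosome 14, 83433440 to 83433465), had 1, 88, 8 and 0 reads in the control and 3, 83, 0 and 1 in the obesity libraries, nearly all in the libraries numbered 2.

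Other members repeated such patterns with other numbers. Site 6 of 8 of Eif5b (chromosome 9, 44698770 to 44698827) had 74, 366, 128 and 65 reads in the control and 79, 320, 90 and 69 in the obesity libraries, highest in those numbered 2. Site 4 of 4 of Eif4b (chromosome 7, 143699918 to 143699949) had 3, 83, 50 and 63 reads and 0, 66, 60 and 107 reads, nearly absent from the libraries numbered 1. Eif4e1b, an eIF4E relative best known from oocytes, had 65.2, 32.1, 34.9 and 118 CPM in the control and 138, 22.7, 46.9 and 176 CPM in the obesity libraries, low in the libraries numbered 2 and 3. Without the libraries numbered 2 it rose by the test with the block (log2 fold change 0.71, SE 0.23, adjusted p 0.0868 in edgeR), while with all libraries the adjusted p was 0.506. Eif4enif1 and Eif4e1b were named after their values were seen. What the rats or libraries of a number share was not tested.

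**Figure D4:**
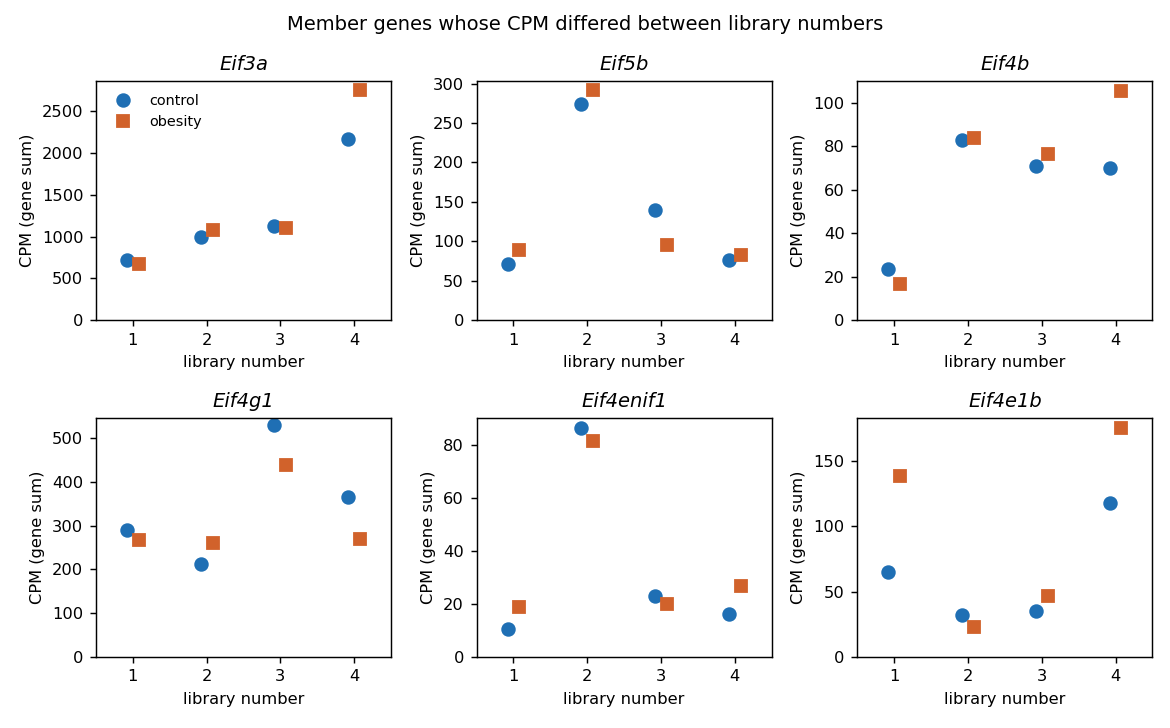
CPM (gene sums, linear axes from 0) of Eif3a, Eif5b, Eif4b, Eif4g1, Eif4enif1 and Eif4e1b by library number, with circles for control and squares for obesity. In Eif3a both libraries numbered 4 are highest, at 2164 and 2758 CPM, and in Eif5b and Eif4enif1 both libraries numbered 2 are highest, whatever the diet.

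Tpt1 was also set beside genes listed as TOP mRNAs and beside other translation genes. Of 10 listed TOP genes 7 were measured. With or without the block, 1 (Tpt1) was lower and 0 higher at an unadjusted p under 0.05 in edgeR. Of all genes, 2.58% were lower and 2.54% higher at that p without the block, and 6.16% and 4.76% with it. The list's median log2 fold change, with Tpt1 itself included, was 0.12 without and -0.15 with the block, against 0.00 and -0.02 over all genes. Its sign therefore depended on the fit. Without and with the block, Eef1b2 (0 to 15 reads) was at 0.12 and -0.43, Eef1d at -0.36 and -0.44, and Eef1g at -0.15 in both. Above 0 in both fits were Eef2 (0.27 and 0.17), Eif3f (0.41 and 0.42) and Eif4b (0.19 and 0.10). Of 29 listed translation genes that are no members (termination factors, poly(A)-binding proteins, mTOR signalling, the integrated stress response) 27 were measured, with a median of 0.10. Without the block 1 was lower at an unadjusted p under 0.05 in edgeR and 0 higher, against 2.58% and 2.54% of all genes. The lower gene was Pabpc1, the cytoplasmic poly(A)-binding protein, with 73, 60, 82 and 48 reads in the control and 26, 53, 31 and 46 in the obesity libraries (log2 fold change -0.80, SE 0.35, unadjusted p 0.036 in edgeR), chosen after its value was seen.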

How the data were processed

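Total RNA of the hypothalamus of 8 rats was read by WTTS-seq. The authors deposited raw counts, the mapped reads per polyadenylation site in each library, without normalization, and their notes in the labels name Bowtie2 2.2.3 and the build Rnor_6.0. How sites were clustered and filtered, and where reads with several matches were placed, is not given in the sources used here, so genes with processed copies (Tpt1, Eef1b2, Eif4a1, Eif4g2, Eif5b) are uncertain to that extent. The lowest site total was 30 reads. No 2 libraries agreed within sampling noise (chi-square per site at least 3.30 over 28 pairs). A final line holding 1 column sum was left out.

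Sites were summed per gene on the strand with most reads. edgeR 4.0.16 (R 4.3.3) with TMM and robust quasi-likelihood F tests was fitted to all 12255 genes and to all 73922 sites, with Benjamini-Hochberg adjustment over all of them and a threshold of 0.1, and diffSpliceDGE (Simes) tested site usage. CPM used TMM-scaled totals. The SE is the absolute log2 fold change divided by the root of F. Scripts were tested on simulated data. Without the block, the edgeR p-values set a difference against the spread between these 8 libraries within their groups. With the block, they set it against the spread left after the library number is fitted. In both fits the estimate of that spread borrows from all genes or sites.

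The labels number the libraries 1 to 4 in both groups without saying what a number shares. Deviations from the group means correlated at 0.268 to 0.382 in the 4 same-numbered pairs over all sites and at -0.20 to -0.0387 in the others. Such deviations cancel out within a group, so positive values in the pairs push the others negative, and the negative values are no further evidence. Same-numbered libraries were treated as pairs, a choice read from the same counts that were then tested. The fit with the block is given beside the counts and named members whose call it changed. Alternatives were DESeq2 1.42.0, other scalings, filterByExpr, both strands, leaving out libraries and, chosen after seeing the data, the same with the block. Genes were named by read total, p, site p, usage p, the ratios and TOP membership. Eef1a1 rows are not analysed here, so 2 of 3 planned ratios were computed, with 0.5 added to each count. The members, lists and rules were chosen with earlier results of these data known. Promoters came from RefSeq (GRCr8). The start sequence of 1 further gene is not reported here.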

Additional observations from a re-analysis of the deposited data

Results flagged for a closer look

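In groups of 4, a library was singled out when its gap to the nearest other as a part of the group's range exceeded Dixon's 95% critical value, which chance gives in about 5% of groups. Over 50 checks 4 were singled out. Eif4g1 had 439 CPM in obesity library 3, where the remaining obesity libraries had 261 to 269, and Eif5b had 292 CPM in obesity library 2, against 82.3 to 95.5. Eif4a1 had 278 CPM in control library 1, against 183 to 193 in the other control libraries. Eef1b2 had 11.3 CPM in obesity library 1, against 0 to 1.62. For Eif4g1 and Eif5b the control library of the same number was also the highest of its group, at 532 and 274 CPM.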

How the results depend on the processing

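Depth was low for 9 of 52 member genes, which averaged fewer than 10 reads a library. With the replicate block, 7 member genes had an unadjusted p under 0.05 (1 without it), 1 an adjusted p under 0.1 (0 without it) and 12 member sites an unadjusted p under 0.05 (3 without it), and Tpt1 passed the threshold at a log2 fold change of -1.32. The block together with DESeq2 size factors, library totals, filterByExpr, the DESeq2 Wald test and both strands gave 6, 7, 5, 3 and 6 genes, 1 adjusted gene each, and Tpt1 at -1.31, -1.33, -1.31, -1.32 and -1.32, and the first 4 of these gave 12, 12, 9 and 10 sites. Without the pair numbered 1, 2, 3 or 4 the block gave 7, 10, 1 and 4 genes, 1, 2, 0 and 0 adjusted genes and 11, 22, 9 and 10 sites, with Tpt1 at -1.21, -1.61, -1.28 and -1.17, past the threshold without pair 1 or 2 and not without pair 3 or 4. Library totals without the block gave 2 genes. Site usage gave 1 gene (Eif4a1) with the block under library totals, under filterByExpr or without the pair numbered 2.

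Leaving out 1 library without the block gave 1 to 4 genes, 2 to 11 sites and 0 to 1 usage genes. It moved log2 fold changes across 0 in Eif3a (-0.38 to 0.57), Eif4g1 (-0.39 to 0.10), Eif5b (-0.65 to 0.55), Eif5a (-0.38 to 0.051), Eif4h (-0.59 to 0.10), Eif2ak4 (-0.012 to 0.31), Eif4ebp2 (-0.035 to 2.04), Eef1b2 (-1.97 to 0.58), Eef2 (-0.10 to 0.53) and Eif4b (-0.080 to 0.52), and in the differences of the Eif4a1 to Eif4a2 ratio (-0.13 to 0.39) and the Eif4ebp2 to Eif4e ratio (-0.66 to 1.40). None of these genes passed the test, and the cause was not tested.

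Signs also changed under other settings. Eif5b was at 0.0041 under DESeq2 size factors, 0.0075 under filterByExpr, 0.0077 under DESeq2 and 0.00047 with both strands, and with the block at 0.0069, 0.0068 and 0.0076 under the first 3 of these and 0.18 without pair 3. Eef1b2 was at -0.43 with the block, and within it at -0.42 under DESeq2 size factors, -0.44 under library totals, -0.48 under DESeq2, -0.43 with both strands and -1.36, -0.18 and -0.78 without pair 1, 2 or 4. With the block, Eif4g3 was at 0.013 and Eif4h at 0.12 without pair 1, Eef2 at -0.081 without pair 2, Eif4h at 0.12 and Eif2ak4 at -0.076 without pair 3, and Eif5a at 0.0088, Eif4ebp2 at -0.011 and Eif4b at -0.070 without pair 4.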

Other observations

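A pair of annotated pseudogenes with an Eif symbol, outside the rule for members, had more reads than most members. Eif5b-ps1 had 2539, 1382, 679 and 1053 reads in the control and 2129, 933, 1311 and 902 in the obesity libraries (log2 fold change -0.13, SE 0.37). Eif4g2-ps1 had 424, 536, 74 and 276 reads in the control and 200, 256, 71 and 165 in the obesity libraries, low in both libraries numbered 3, where Eif4g2 itself was highest. It fell with the block (log2 fold change -0.82, adjusted p 0.0606 in edgeR) while without the block its value was -0.87 (SE 0.58, unadjusted p 0.171).

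The share of reads at the last site of a gene, averaged over the 33 members with more than 1 site, was 33.7% ± 2.19 in the control and 30.1% ± 3.87 in the obesity group (SD, n = 4), and over all 7996 such genes 33.3% ± 1.18 and 30.8% ± 1.75, given as a description without a test.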
